A study of Saccharomyces cerevisiae with 6 samples.

Results

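The genes described here encode the proteins of the small subunit of the cytosolic ribosome, the 40S subunit, of the budding yeast Saccharomyces cerevisiae. They were taken by identifier, as RPS0A to RPS31 in number order and then ASC1, without use of any measured value. The 57 genes, of 7127 annotated features in the count table, encode 33 proteins. For 24 of these proteins the genome holds an A and a B copy, and 9 have 1 gene. All 57 genes passed the filter on low counts and entered the tests.

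RNA was measured by sequencing of poly(A)-enriched RNA from 3 wild type and 3 snf2Δ samples of the strain HHY221. Cells were grown in YPD, a rich medium, at 30 °C to log phase, with no rapamycin. SNF2 encodes the catalytic subunit of the nucleosome remodeller SWI/SNF. HHY221 is a MATa strain of the W303 background made for anchor-away experiments, and both genotypes carried its TOR1-1 allele, its deletion of FPR1 and its 2xFKBP12 tag on RPL13A, which encodes a protein of the large subunit. The wild type was therefore itself altered in the TOR pathway and in a ribosomal protein, and the mutant was snf2Δ in this background.

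Each 40S subunit holds 1 molecule of each core protein, arranged around the 18S rRNA as a head, a platform and a body. In growing yeast the ribosomal protein genes are among the most highly transcribed genes. Rap1 binds many of their promoters, together with Fhl1, its coactivator Ifh1 and the HMG-box protein Hmo1, and the TORC1 kinase acts on them through Sch9 and Sfp1. Most of the genes were kept as pairs after an ancient duplication of the genome, and many have introns, which are otherwise rare in this yeast.

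Total counts were 4134546 to 6708036 per library, and the 57 genes took 7.85% to 9.26% of them. The lowest count of any of these genes in any library was 648, so counting error was small beside the spread between libraries. The wild type libraries held 298 to 365 counts of SNF2 and the mutant libraries 6 to 9, a log2 fold change of -5.23 ± 0.26 (SE, n = 3 and 3, edgeR quasi-likelihood test, Benjamini-Hochberg adjusted p = 6.96e-10). FPR1 had 0 counts in all 6 libraries. The a-cell markers MFA1, MFA2, STE2, STE6, BAR1, AGA2 and ASG7 were present in every library with 34 to 5595 counts, and the α-factor genes MF(ALPHA)1 and MF(ALPHA)2 had 0 to 3. The remaining alpha-cell markers were STE3, at 4 to 15 counts, and SAG1, at 190 to 307. Nothing in the labels says that replicates came from separate colonies, so the spread behind each p-value may be technical.

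The wild type replicate 3 stood apart from the other libraries. Levels are given in CPM, counts per 1000000 counts of the library, after TMM scaling, which sets the libraries on a common scale from most of their genes. Summed over the 57 genes, replicate 3 was 1.304 times the mean of the other wild type libraries, and it was the highest wild type library for 53 of the 57 genes. It was the highest of all 6 libraries for 30 of them. The 81 genes of the large subunit gave a ratio of 1.22, and the sum over all features tested a ratio of 1.12. The median log2 difference between replicate 3 and the other wild type libraries was 0.37 for the small subunit genes, 0.30 for the large subunit genes and 0.01 over all features tested. The summed a-cell markers were also 1.62 times as high in it, and it was the library with most counts. The part of these differences in the results was not tested, so results that rest on replicate 3 are given with and without it.

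The first question was whether loss of Snf2 changed the level of the small subunit genes. In these bulk cultures fewer cells that express a gene and less RNA per cell cannot be told apart. With edgeR's quasi-likelihood test and an adjusted p below 0.05, 4 genes were higher in snf2Δ, RPS22B, RPS25A, RPS6B and RPS14B, and 2 were lower, RPS9A and RPS26B. These 6 are 10.5% of the 57 genes, beside 34.4% of the 5641 features tested other than SNF2, with 16.6% higher and 17.8% lower. None passed a log2 fold change of 2 in size as well, a limit that 2.82% of all features passed. The largest changes were 1.63-fold higher, for RPS22B, and 1.87-fold lower, for RPS9A.

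**Figure D1:**
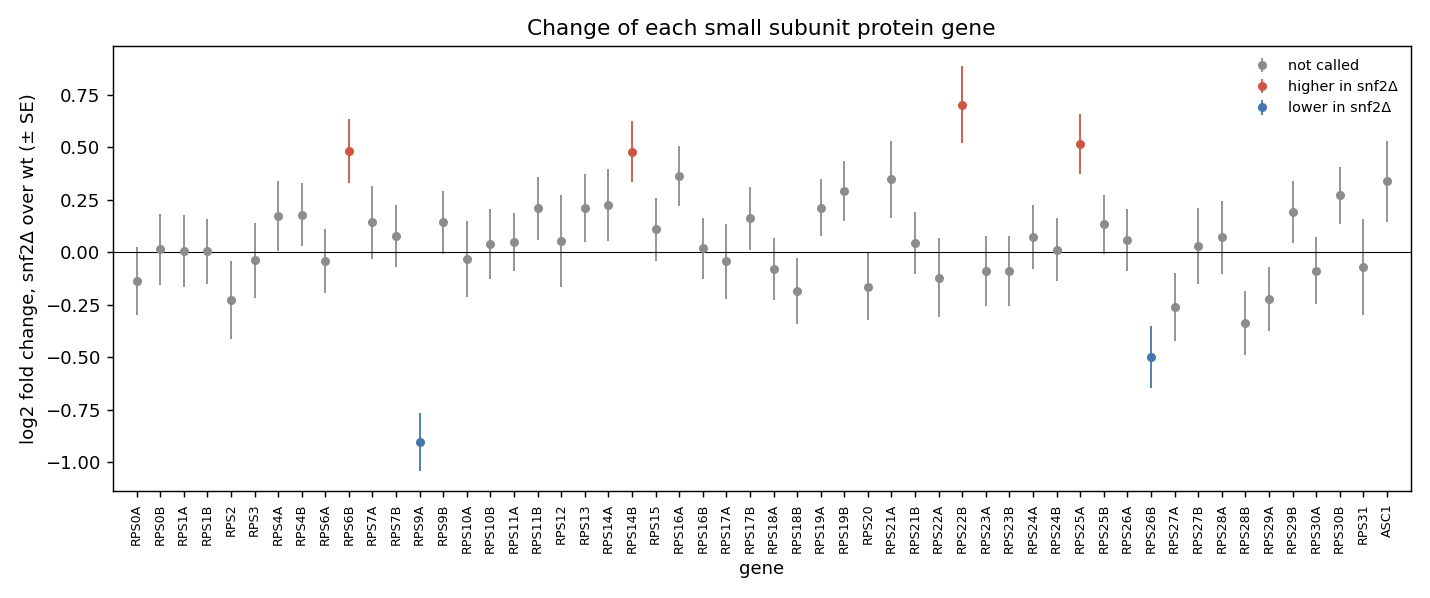
Log2 fold change of 54 small subunit genes between snf2Δ and wild type (y axis), with its standard error as bars and the genes in number order (x axis). The values run from -0.90 for RPS9A to 0.70 for RPS22B, and the 6 coloured genes are those called at an adjusted p below 0.05.

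The median log2 fold change of the 57 genes was 0.04, beside -0.02 over all features tested, and 38 of the 57 values were above 0. For 8 genes all 3 snf2Δ libraries were above all wild type libraries and for 3 all were below, 11 of 57 in all, whereas the genotypes did not overlap for 46.6% of all features, with snf2Δ above for 22.4% and below for 24.1%. The count of calls moved with the scaling and the libraries. Without wild type replicate 3 the same test called 12 genes higher and 2 lower, beside 20.8% higher and 23.1% lower of all features, and the median was 0.17. Upper-quartile scaling called 7 higher and 2 lower, beside 21.3% and 14.3% of all features, and it moved the share of all calls that were higher from 48.4% to 59.8%. A correction for GC content and length called 3 higher and 7 lower, beside 17.3% and 18.6% of all features, and gave a median of -0.10. With that correction 17 of the 57 values were above 0. Without wild type replicate 1 or 2 the median was -0.02 and -0.03, with 26 values above 0 in each fit. Without snf2Δ replicate 1, 2 or 3 it was 0.05, -0.006 and 0.08, with 40, 28 and 43 values above 0.

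RPS9A was the gene with the largest change. RPS9A (YPL081W) lies at chrXVI:404950-406044 on the plus strand of the R64 assembly, with an intron of 501 bases, and encodes Rps9, a protein of the 40S body that affects decoding accuracy. Its level was 325, 285 and 315 CPM in wild type and 187, 147 and 161 CPM in snf2Δ. The genotypes did not overlap, and the lowest wild type library was above 1.5 times the highest snf2Δ library. The log2 fold change was -0.90 ± 0.14 (SE, n = 3 and 3, edgeR, adjusted p = 1.12e-04). RPS9A was called under each of the 18 settings tried, with log2 fold changes of -1.03 to -0.82, and no other small subunit gene was.

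RPS26B (YER131W, chrV:423952-424311, plus strand, no intron) was the other gene that fell. Rps26 sits on the platform where the mRNA leaves the subunit. The 3 wild type libraries were close together at 1100, 1095 and 1151 CPM, and the snf2Δ libraries had 897, 795 and 676 CPM. All snf2Δ libraries were thus below all wild type libraries, and they were the more spread of the 2 groups. The log2 fold change was -0.50 ± 0.15 (edgeR, adjusted p = 0.0155). It was no longer called without snf2Δ replicate 2 (-0.50, adjusted p = 0.055) or replicate 3 (-0.40, adjusted p = 0.0752).

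Among the genes that rose, RPS22B (YLR367W, chrXII:856442-857317, plus strand, with an intron of 483 bases) changed most. It encodes Rps22, a protein of the 40S body, and the small nucleolar RNA gene SNR44 lies within its span on the same strand. Its level was 208, 173 and 289 CPM in the wild type and 372, 424 and 297 CPM in snf2Δ. The genotypes did not overlap, but wild type replicate 3 and snf2Δ replicate 3 were nearly level. The log2 fold change was 0.70 ± 0.18 (edgeR, adjusted p = 0.00754), and it was 0.58 with an adjusted p of 0.0507 without snf2Δ replicate 2. Whether reads of SNR44 entered the count was not tested.

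RPS25A (YGR027C, chrVII:534132-534458, minus strand, no intron) encodes Rps25, a protein of the head that yeast needs for initiation at some viral internal ribosome entry sites. Its level was 438, 417 and 535 CPM in the wild type and 633, 703 and 653 CPM in snf2Δ, with no overlap. The log2 fold change was 0.52 ± 0.14 (edgeR, adjusted p = 0.0102).

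RPS6B (YBR181C, chrII:591712-592774, minus strand, with an intron of 352 bases) encodes Rps6, a protein of the body that is phosphorylated under control of TORC1. It had 709, 720 and 863 CPM in the wild type and 945, 1234 and 1022 CPM in snf2Δ, again with no overlap. The log2 fold change was 0.48 ± 0.15 (edgeR, adjusted p = 0.0231). Its coding sequence is nearly the same as that of RPS6A, so its level is uncertain, as described with the pairs.

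RPS14B (YJL191W, chrX:73787-74611, plus strand, with an intron of 408 bases) is the less abundant of the genes for Rps14, a platform protein, which in yeast binds the RPS14B pre-mRNA and represses its splicing. It had 161, 156 and 216 CPM in the wild type and 250, 255 and 238 CPM in snf2Δ. The wild type libraries were all lower, replicate 3 least so. The log2 fold change was 0.48 ± 0.15 (edgeR, adjusted p = 0.0186). With the GC and length correction it was 0.18, with an adjusted p of 0.255.

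RPS25A, RPS6B and RPS14B were each no longer called without wild type replicate 1, without wild type replicate 2 or without snf2Δ replicate 2. In these fits the adjusted p was 0.0513 to 0.0609 for RPS25A, 0.0821 to 0.139 for RPS6B and 0.0671 to 0.0956 for RPS14B. In all of these fits the log2 fold change stayed above 0.

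**Figure D2:**
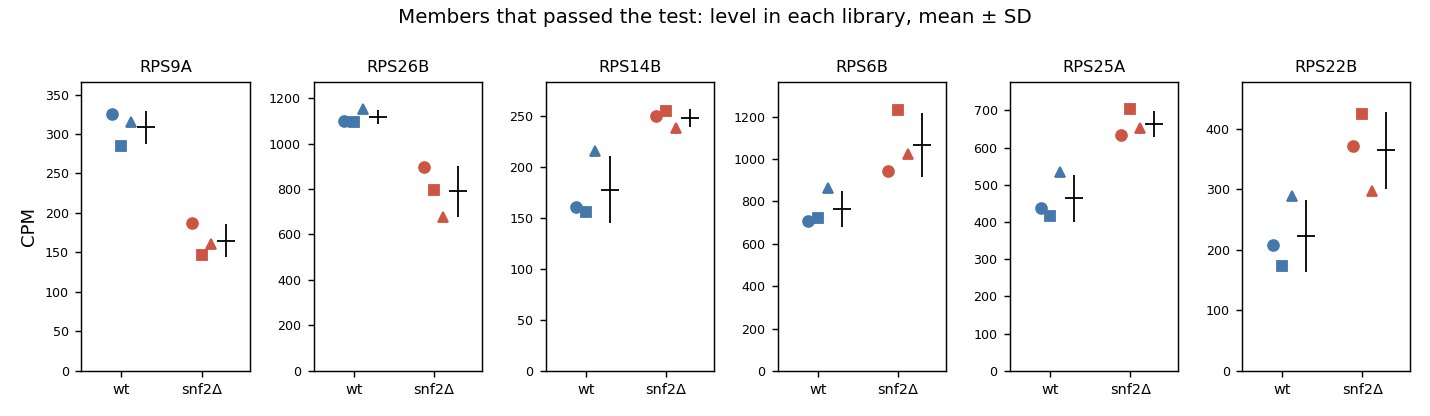
Level in CPM (y axis, a separate scale for each gene) of the 6 small subunit genes that passed the test, in the 3 wild type and 3 snf2Δ libraries, with circles, squares and triangles for replicates 1, 2 and 3 and black bars for mean ± SD. The genotypes do not overlap for any of the 6 genes, and in the 4 genes that rose the highest wild type point is replicate 3.

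The called genes came from all parts of the subunit. Of the 23 head genes 1 was called, of the 11 platform genes 2 and of the 23 body genes 3, with median log2 fold changes of 0.04, 0.01 and 0.05. The genes were assigned to these parts from general knowledge of the structure. RPS2, whose protein lies at the mRNA entry channel, was counted with the platform genes. Genes with an intron gave 4 calls among 37 and genes without gave 2 among 20. Within pairs, 5 of the calls were on the copy with the lower wild type level and 1 was on the other copy, RPS25A, from 24 genes each. The called shares of all these groups ran from 4.17% to 20.8%, below the 34.4% called of all features. Differences between the groups were not tested.

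The 9 proteins with 1 gene include RPS2, RPS3, RPS12, RPS13, RPS15, RPS20, RPS31 and ASC1. None of the 9 was called by edgeR, beside 34.4% of all features, and DESeq2 called none, beside 30.8%. None had an unadjusted edgeR p below 0.05, against 2525 of the 5641 features. For none did the genotypes separate, whereas they did for 46.6% of all features. Their log2 fold changes ran from -0.23 to 0.34, with a median of 0.02.

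The extremes of this group were RPS2 and ASC1. RPS2, which encodes a protein at the mRNA entry channel, had 4081, 4057 and 5687 CPM in the wild type and 3610, 4206 and 4000 CPM in snf2Δ (log2 fold change -0.23 ± 0.18, edgeR adjusted p = 0.368). ASC1, which encodes the yeast RACK1 scaffold on the head and holds SNR24 within its span, had 2296, 2183 and 3194 CPM in the wild type and 2600, 3572 and 3522 CPM in snf2Δ (0.34 ± 0.19, adjusted p = 0.189). In both genes wild type replicate 3 lay far above the other wild type libraries, which put it over all snf2Δ libraries for RPS2 and between them for ASC1. Without it ASC1 was called, at 0.53 ± 0.16 (adjusted p = 0.0157).

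RPS31 encodes Rps31 fused to ubiquitin, which is cleaved off, and was the most variable of the 9. It had 4297, 4050 and 7139 CPM in the wild type and 4361, 6023 and 4374 CPM in snf2Δ (log2 fold change -0.07 ± 0.23, edgeR adjusted p = 0.842). The spread within each genotype was thus larger than the difference between them.

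The genes of the head proteins Rps3, Rps12, Rps15 and Rps20 gave log2 fold changes of -0.04 ± 0.18, 0.05 ± 0.22, 0.11 ± 0.15 and -0.16 ± 0.16, with edgeR adjusted p-values of 0.895, 0.874, 0.612 and 0.459. RPS13, which encodes a body protein, gave 0.21 ± 0.16 (adjusted p = 0.337), and without wild type replicate 3 it was called at 0.35 ± 0.13 (adjusted p = 0.0404). RPS2 and RPS20 were called as lower with the GC and length correction, at -0.39 (adjusted p = 0.0447) and -0.33 (adjusted p = 0.0474).

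The summed level of the 57 genes was then compared between the libraries. It was 76742, 76011 and 99579 CPM in the wild type and 82357, 92975 and 82856 CPM in snf2Δ. The genotypes overlapped, since wild type replicate 3 was the highest library and the other wild type libraries were the lowest. The ratio of the means was 1.02 (exact permutation test over libraries, two-sided p = 0.9; 3 against 3 libraries cannot go below 0.10). Without wild type replicate 3 the ratio was 1.13, with all snf2Δ libraries above the remaining 2.

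The 81 large subunit genes had the same order of libraries. They summed to 95617, 94496 and 116207 CPM in the wild type and 103974, 116026 and 106362 CPM in snf2Δ, a ratio of 1.07 (exact permutation p = 0.6). Of them 4 were called higher and 2 lower, 7.41%, beside 34.4% of all features, with a median log2 fold change of 0.07. The 4 with the smallest adjusted p were RPL9B (0.94 ± 0.17, edgeR adjusted p = 5.00e-04), RPL15B (0.65 ± 0.18, 0.00935) and RPL8A (0.48 ± 0.14, 0.0117), which rose, and RPL31B (-0.48 ± 0.14, 0.0172), which fell. As in the small subunit, each of them is a copy of a pair. RPL15B was no longer called with the GC and length correction (adjusted p = 0.0548), RPL8A without snf2Δ replicate 2 (0.077) and RPL31B without snf2Δ replicate 2 (0.0536) or 3 (0.0814). Without wild type replicate 3, 21 of the 81 large subunit genes were called higher and 2 lower, beside 20.8% and 23.1% of all features.

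The small subunit of the mitochondrial ribosome, made from separate genes, had a lower summed level in snf2Δ. Its 30 genes summed to 2167, 2151 and 1957 CPM in the wild type and 1887, 1775 and 1542 CPM in snf2Δ, with no overlap between the genotypes. The ratio was 0.829 (exact permutation p = 0.1, the smallest possible). None of the 30 was called higher by edgeR or DESeq2, with 1 at an unadjusted p below 0.05, where edgeR called 16.6% of all features higher. By edgeR 7 were called lower, 23.3%, beside 17.8% of all features. The 4 with the smallest adjusted p were NAM9 (-0.69 ± 0.14, edgeR adjusted p = 0.00126), RSM26 (-0.68 ± 0.16, 0.00405), MRP4 (-0.52 ± 0.14, 0.00997) and MRPS5 (-0.70 ± 0.20, 0.0137). MRP4 was no longer called without snf2Δ replicate 2 (adjusted p = 0.0671) and MRPS5 without snf2Δ replicate 3 (0.0746). The median log2 fold change was -0.26 over the 30 genes. Without wild type replicate 3 it was -0.27, with 13 genes lower and 0 higher, beside 23.1% and 20.8% of all features. The difference between this list and the cytosolic genes was not tested.

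**Figure D3:**
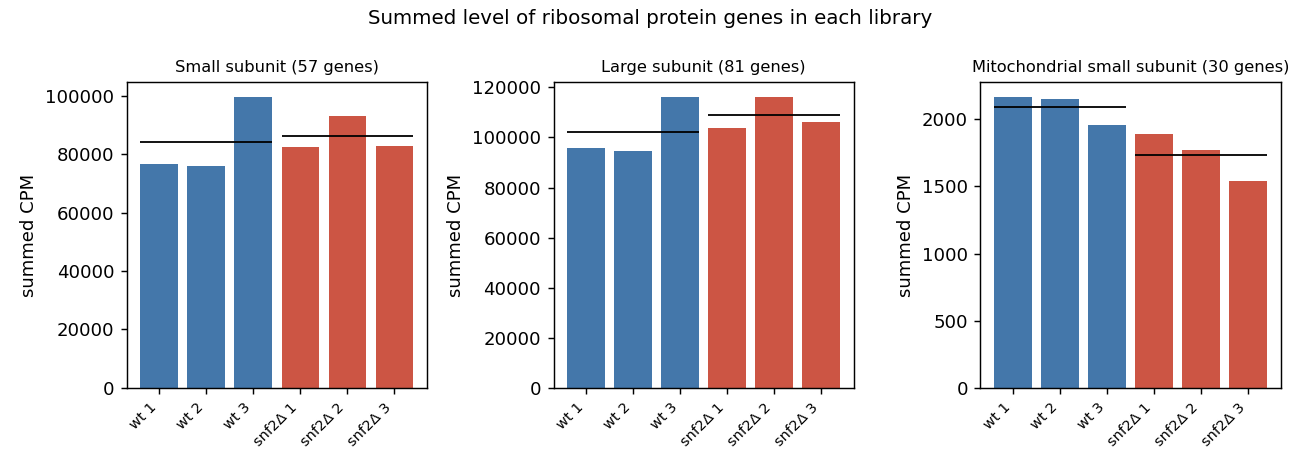
Summed CPM (y axis, from 0) of the small subunit, large subunit and mitochondrial small subunit genes in each library, with horizontal lines for the mean of each genotype. Wild type replicate 3 is the highest library for both cytosolic lists (99579 and 116207 CPM), and in the mitochondrial list all snf2Δ bars (1542 to 1887 CPM) are below all wild type bars (1957 to 2167 CPM).

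Leaving out wild type replicate 3 moved most of the small subunit genes the same way. Of the 57 log2 fold changes 46 were then above 0, beside 26 without wild type replicate 1 and 26 without replicate 2. The 6 genes called with all libraries were called again, and RPS13, RPS14A, RPS16A, RPS19B, RPS21A, RPS29B, RPS30B and ASC1 were added, all higher. RPS21A, for example, which encodes a platform protein, had 456, 444 and 711 CPM in the wild type and 598, 792 and 662 CPM in snf2Δ. Its log2 fold change was 0.35 ± 0.18 (edgeR adjusted p = 0.153) with all libraries and 0.60 ± 0.14 (adjusted p = 0.00259) without replicate 3.

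**Figure D4:**
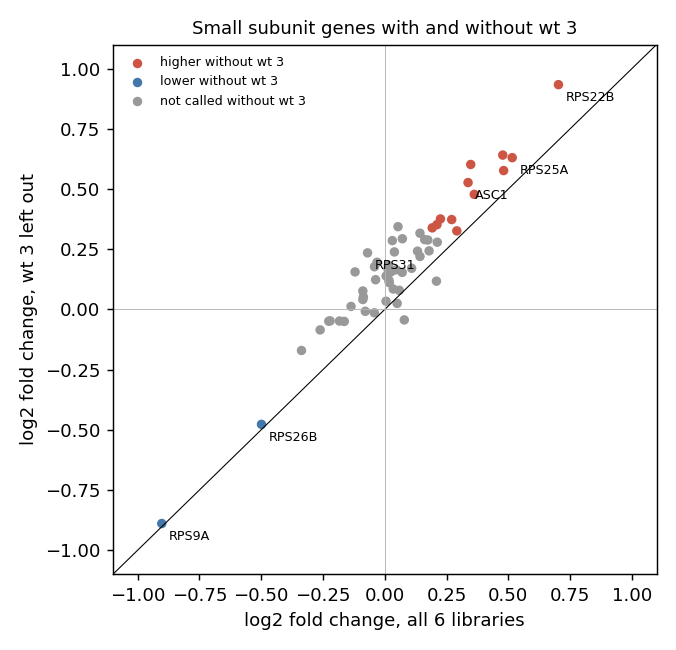
Log2 fold change of the 57 small subunit genes with all 6 libraries (x axis) and without wild type replicate 3 (y axis), coloured by the call without it, with a line where both are equal. Most points lie above the line, and RPS9A and RPS26B, the genes called lower, lie close to it at -0.90 and -0.50 on the x axis.

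Since most of these proteins are made from a pair of genes, the counts of both copies were also added and the test was run on the sums. None of the 33 proteins was called by edgeR, where 34.5% of all features were. Of the 33 sums 1, that of RPS25, had an unadjusted p below 0.05, and DESeq2 called it. The log2 fold changes of the sums ran from -0.22 for RPS2 to 0.35 for RPS25. The genotypes did not overlap for RPS25, which went from 868 ± 115 to 1109 ± 40.4 CPM from wild type to snf2Δ (SD, n = 3), and for RPS19, which went from 1786 ± 109 to 2145 ± 95.9 CPM. The adjusted p was 0.0716 for RPS25 and 0.179 for RPS19. Without wild type replicate 3 the sums of RPS13, RPS14, RPS21, RPS25 and ASC1 were called, all higher, 5 of the 33 beside 43.9% of all features in that fit.

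Per kilobase of coding sequence, the summed transcript levels of the 33 proteins were of the same order. Within a library the highest was 3.29 to 5.08 times the lowest, and the coefficient of variation was 26.8% to 39.2%. RPS31 was the highest in the wild type, at 11241 ± 3747 CPM per kb (SD, n = 3), and RPS25 was the lowest, at 2656 ± 351 CPM per kb, level with ASC1 at 2663 ± 579. RPS26 came next to RPS31 at 8255 ± 244 CPM per kb. The difference of the means was within the SD of RPS31, but RPS31 was above RPS26 in all 6 libraries. In snf2Δ RPS31 was again the highest, at 10725 ± 2090 CPM per kb, and the lowest sum was that of RPS6, at 3235 ± 458 CPM per kb. RPS3 at 3272 ± 484, ASC1 at 3369 ± 571 and RPS25 at 3390 ± 123 differed from RPS6 by less than its SD.

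The next question was whether the balance between A and B copies differed between the genotypes. Members of a pair differ in sequence only in part, which sets how well their reads can be told apart. For 3 pairs whose balance changed, the coding window of 75 bases, the read length, in which the copies differ most is shown, with the bases that differ between the copies in capitals. Each is the coding strand of R64, for RPS6A from chrXVI:377861-377935 (minus), RPS6B from chrII:592282-592356 (minus), RPS22A from chrX:75189-75263 (minus), RPS22B from chrXII:856481-856555 (plus), RPS26A from chrVII:148232-148306 (minus) and RPS26B from chrV:424234-424308 (plus).
RPS6A: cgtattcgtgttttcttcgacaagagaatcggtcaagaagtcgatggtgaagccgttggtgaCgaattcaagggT
RPS6B: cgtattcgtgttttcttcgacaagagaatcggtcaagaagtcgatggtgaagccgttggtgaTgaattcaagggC
RPS22A: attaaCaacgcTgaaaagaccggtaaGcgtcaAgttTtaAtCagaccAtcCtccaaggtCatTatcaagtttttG
RPS22B: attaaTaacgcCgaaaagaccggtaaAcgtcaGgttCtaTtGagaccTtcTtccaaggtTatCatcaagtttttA
RPS26A: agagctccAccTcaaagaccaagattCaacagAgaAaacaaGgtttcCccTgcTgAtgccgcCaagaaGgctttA
RPS26B: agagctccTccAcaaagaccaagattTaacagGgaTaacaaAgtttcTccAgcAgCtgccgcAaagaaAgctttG

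The RPS6 windows differ at 2 bases, those of RPS22 at 12 and those of RPS26 at 13. Over whole coding sequences RPS6A and RPS6B differ at 6 of 711 bases and share a run of 311, and only 36.9% of the 75-base stretches of either copy are found nowhere else in the coding sequences of the genome. The share is 70.9% for the RPS4 copies and 73.95% for the RPS24 copies. It is 93.9% or more for the copies of 20 of the 24 pairs. How reads that match both copies were counted was not stated, so the balance of the RPS6, RPS4 and RPS24 pairs is uncertain.

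The A copy gave more than 50% of the transcripts of its pair in the wild type for 14 of the 24 pairs, and its share ran from 14.6% for RPS9 to 91.2% for RPS14. The ratio of A to B was tested with limma on log2 CPM with a prior count of 2, fitted over 810 pairs of reciprocal best protein matches in the whole genome. It was called at an adjusted p below 0.05 for 9 of the 24 pairs, 37.5%, beside 45.3% of all 810 pairs and 13 of 35 large subunit pairs, 37.1%. The median size of the change was 0.23 on the log2 scale for the 24 pairs, 0.21 for the large subunit pairs and 0.43 for all pairs. For 12 of the 24 pairs the ratios of the genotypes did not overlap, against 54.9% of all pairs.

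**Figure D5:**
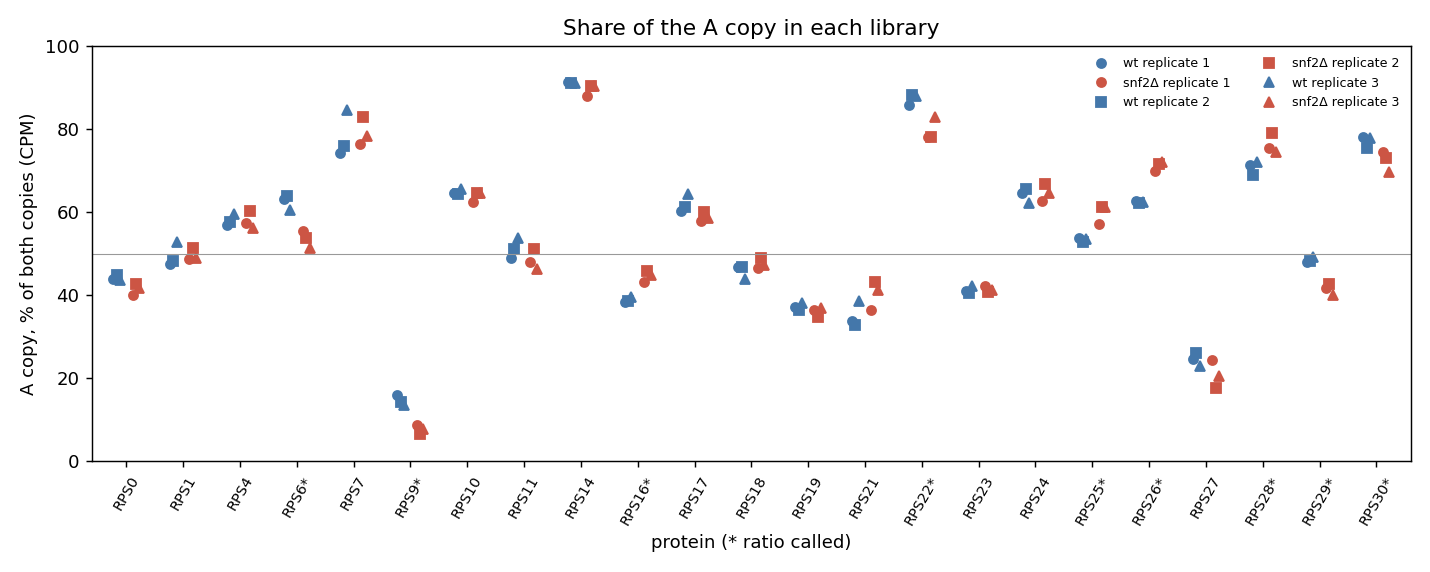
Share of the A copy in the summed CPM of its pair (y axis, in percent) for 23 pairs in number order (x axis), with blue points for wild type and red points for snf2Δ libraries and an asterisk at the 9 pairs whose ratio was called. RPS9 drops from 14.6% to 7.65% on average and RPS26 rises from 62.5% to 71.1%, without overlap of the genotypes.

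The RPS9 pair had the largest change of the log2 ratio. RPS9A made up 15.9%, 14.3% and 13.6% of its pair in wild type and 8.76%, 6.45% and 7.75% in snf2Δ. The share of the minor copy was thus lower in every snf2Δ library. The log2 ratio changed by -1.05 ± 0.14 (SE, limma, adjusted p = 7.09e-05). RPS9B, the major copy, had 1719, 1709 and 2004 CPM in the wild type and 1951, 2128 and 1918 CPM in snf2Δ, which overlap (log2 fold change 0.14 ± 0.15, edgeR adjusted p = 0.496). The sum of both copies was 2118 ± 177 and 2166 ± 101 CPM (SD, n = 3, log2 fold change 0.03 ± 0.15, adjusted p = 0.893).

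In the RPS26 pair the A copy made up 62.7%, 62.3% and 62.5% in the wild type and 69.9%, 71.5% and 72.0% in snf2Δ. The wild type libraries, replicate 3 included, differed by under 1 percentage point. The log2 ratio changed by 0.56 ± 0.08 (limma, adjusted p = 1.34e-04). RPS26A itself gave 0.06 ± 0.15 (edgeR adjusted p = 0.793), so the balance moved with the fall of RPS26B, and the sum gave -0.12 ± 0.16 (adjusted p = 0.578).

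The RPS22 pair moved the other way. RPS22A made up 85.9%, 88.3% and 87.9% in the wild type and 78.2%, 78.1% and 83.0% in snf2Δ, a change of -0.80 ± 0.15 in the log2 ratio (limma, adjusted p = 6.40e-04). RPS22A had a log2 fold change of -0.12 ± 0.19 (edgeR adjusted p = 0.656). For RPS6 the share of A was 63.2%, 63.8% and 60.5% in the wild type and 55.5%, 53.8% and 51.4% in snf2Δ (-0.53 ± 0.10, limma, adjusted p = 6.32e-04). RPS6A gave -0.04 ± 0.15 (edgeR adjusted p = 0.856), so the share of the minor copy was higher in snf2Δ in both pairs. RPS6A and RPS6B encode the same protein sequence.

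In the other 5 called pairs the log2 ratio changed less. RPS29A, for a zinc-binding head protein, went from 48.5% ± 0.68 to 41.5% ± 1.24 of its pair (SD, n = 3, log2 ratio -0.41 ± 0.10, limma, adjusted p = 0.00427). RPS16A, for a head protein whose tail reaches the P site, went from 38.8% ± 0.57 to 44.6% ± 1.27 (0.35 ± 0.09, adjusted p = 0.00521). The genotypes did not overlap in either pair, although neither copy passed the test for single genes.

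RPS25A went from 53.3% ± 0.57 to 59.8% ± 2.45 (log2 ratio 0.39 ± 0.11, limma, adjusted p = 0.0115). RPS28A went from 70.7% ± 1.64 to 76.3% ± 2.38 (0.42 ± 0.12, adjusted p = 0.0133). RPS28B, in yeast, carries a site through which Rps28 acts on the decay of its own mRNA. RPS30A went from 77.1% ± 1.54 to 72.4% ± 2.47 (-0.36 ± 0.12, adjusted p = 0.0307).

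The copies of these 5 pairs had the following log2 fold changes in the test of single genes. They were -0.22 ± 0.15 for RPS29A and 0.19 ± 0.15 for RPS29B (edgeR adjusted p = 0.284 and 0.333), and 0.36 ± 0.14 for RPS16A and 0.02 ± 0.14 for RPS16B (0.0624 and 0.937). RPS25B gave 0.13 ± 0.14 (0.491). The RPS28 copies gave 0.07 ± 0.17 for A and -0.34 ± 0.15 for B (0.783 and 0.0973), and the RPS30 copies -0.09 ± 0.16 for A and 0.27 ± 0.13 for B (0.711 and 0.13). In 7 of the 9 called pairs the values of the copies had opposite signs, and RPS16 and RPS25 were the exceptions.

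Without wild type replicate 3, 9 pairs were called again, with RPS21 in place of RPS30, beside 46.4% of all pairs in that fit. RPS9, RPS26, RPS6, RPS22, RPS29 and RPS25 were called under all 14 settings tried, which did not include the GC and length correction. RPS25 passed narrowly without snf2Δ replicate 3 (limma adjusted p = 0.0499). The ratio of RPS30 was lost in 5 of them (adjusted p up to 0.143, without snf2Δ replicate 3), that of RPS28 without wild type replicate 2 (0.0631) or snf2Δ replicate 2 (0.059), and that of RPS16 with voom weights (0.0573). The share of the less abundant copy rose in 4 of the 9 called pairs and fell in 5.

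The other 15 pairs were not called, and for 13 of the 24 pairs no setting gave a call. Changes of the log2 ratio in the 15 ran from -0.32 for RPS27 to 0.32 for RPS21. Among those closest to 0 were RPS4, RPS1 and RPS23, at 0.00 ± 0.08, 0.01 ± 0.09 and 0.01 ± 0.08 (limma adjusted p = 0.986, 0.972 and 0.949). The copies of RPS1 and of RPS23 can be told apart well by sequence, those of RPS4 less so. The most uneven pair, RPS14, in which A made up 91.2% ± 0.12 in the wild type and 89.6% ± 1.36 in snf2Δ, gave -0.26 ± 0.13 (adjusted p = 0.123).

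The proteins of a pair are 87.9% to 100% identical, and 9 pairs encode identical proteins, of which RPS6, RPS16 and RPS30 were called. The coding sequences of a pair share runs of 23 to 465 bases. Their upstream sequences, taken as the 500 bases before the start codon, share no run longer than 14 bases. These upstream stretches were searched on both strands for motifs of known regulators of ribosomal protein genes. A match is only a description of the letters.

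The Rap1 motif ACCCNNACA was found upstream of 18 of the 57 genes, 31.6%, beside 5.47% of 6000 genes. With a second form, CATCC and ACA with 2 bases between them, added after the sequences were read, 29 genes had a match, 50.9%, beside 6.98% of all genes and 58.0% of large subunit genes. Windows around a match are shown for the single-copy gene RPS2, among the most abundant of the set, and for both copies of RPS16, with ACCCNNACA in capitals. They run toward the start codon, from chrVII:277189-277277 (plus), chrXIII:551581-551669 (plus) and chrIV:308103-308191 (minus) of R64.
RPS2: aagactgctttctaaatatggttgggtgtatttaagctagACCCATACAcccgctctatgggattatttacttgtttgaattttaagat
RPS16A: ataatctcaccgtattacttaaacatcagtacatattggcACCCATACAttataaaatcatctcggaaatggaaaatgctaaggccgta
RPS16B: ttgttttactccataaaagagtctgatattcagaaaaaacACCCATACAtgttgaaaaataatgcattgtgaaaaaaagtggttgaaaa

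The same 9 letters thus stand upstream of all 3 genes. The match begins 388 bases before the start codon in RPS2, 307 in RPS16A and 362 in RPS16B. Of the 29 genes with either form 1 was called, RPS6B, and of the 28 without 5 were called. Both shares were below the 34.4% called of all features. The median log2 fold change was 0.04 both with and without a match. The Abf1 motif, TCA and ACG with 6 bases between them, was present upstream of 21.1% of the genes and 22.7% of all genes, the Fhl1 motif GACGCA of 10.5% and 10.9%, and the RRPE motif AAAATTTT of 8.77% and 12.4%.

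Of 12 regulators of ribosomal protein genes, 3 were called lower in snf2Δ and 3 higher, beside 34.4% called of all features. HMO1, which encodes the HMG-box protein, had 228, 241 and 303 CPM in the wild type and 136, 129 and 144 CPM in snf2Δ. All snf2Δ libraries were lower (log2 fold change -0.92 ± 0.14, edgeR adjusted p = 1.38e-04). SFP1, for the activator Sfp1, had 101, 107 and 136 CPM against 67.0, 72.7 and 81.04 CPM, again with no overlap (-0.64 ± 0.15, adjusted p = 0.00395). MRS6, whose product binds Sfp1, gave -0.51 ± 0.13 (adjusted p = 0.00616).

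IFH1, for the coactivator, had 40.5, 43.1 and 27.7 CPM in the wild type and 53.9, 51.7 and 64.1 CPM in snf2Δ (log2 fold change 0.62 ± 0.18, edgeR adjusted p = 0.0145), with no overlap. The kinase genes TOR2 and SCH9 gave 0.45 ± 0.15 (adjusted p = 0.0309) and 0.42 ± 0.15 (0.0456), and the genotypes overlapped for SCH9. IFH1 was no longer called without snf2Δ replicate 3 (adjusted p = 0.0796). Both TOR2 and SCH9 lost the call when any 1 library other than wild type replicate 3 and snf2Δ replicate 1 was left out, with adjusted p-values of 0.0763 to 0.14 for TOR2 and 0.127 to 0.202 for SCH9, and SCH9 was also lost with no filter (0.0516). The genes of the activators Sfp1 and Ifh1 thus lay on opposite sides.

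The other 6 regulators were not called. RAP1 gave -0.21 ± 0.14 (edgeR adjusted p = 0.259), FHL1 -0.11 ± 0.16 (0.655) and ABF1 -0.25 ± 0.15 (0.222). ESA1, for the acetyltransferase of NuA4, gave 0.17 ± 0.16 (0.447), TOR1, present as TOR1-1 in both genotypes, 0.36 ± 0.14 (0.0623), and CRF1, for a corepressor, 0.83 ± 0.37 (0.0917) at 2.24 to 6.68 CPM.

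Of 18 genes for assembly factors and chaperones of the 40S subunit, 1 was called higher and 1 lower, 11.1%, beside 34.4% of all features. BUD23, for the methyltransferase of 18S rRNA, rose by 0.42 ± 0.15 on the log2 scale (edgeR adjusted p = 0.0436), and KRR1, for a factor of early assembly, fell by 0.38 ± 0.13 (adjusted p = 0.0382). The kinase genes RIO2 and RIO1 gave 0.34 ± 0.15 (adjusted p = 0.094) and -0.30 ± 0.14 (0.103). The median of the 18 was -0.10. With the GC and length correction BUD23 gave 0.03 (adjusted p = 0.868), and leaving out the same libraries, each in turn, as for TOR2 also ended its call (adjusted p = 0.117 to 0.176). KRR1 was not called with total counts (0.0632) or upper-quartile scaling (0.102), nor without any library other than wild type replicate 3 (0.0551 to 0.159). Without wild type replicate 3 RIO2 (0.51, adjusted p = 0.00563) and RIO1 (-0.36, 0.0397) were called.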

How the data were processed

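The values are raw read counts for each feature of the annotation, deposited by the authors as whole numbers without normalization, in 1 column for each of the 6 libraries. The submitters' processing notes name sacCer3 and the tools STAR 2.7.3a, RSEM 1.3.0 and bcl2fastq 2.18, and the study's methods give paired-end reads. Strand handling and the treatment of reads matching several genes are not given in the sources used here. The labels name hot phenol extraction and the methods a column kit, so the extraction is not settled.

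The groups came from the labels. The small subunit genes, the lists and the tests were chosen with earlier results of these data known. Counts were filtered with filterByExpr, scaled by TMM and tested with edgeR 4.0.16 (quasi-likelihood F test, genotype only, Benjamini-Hochberg over all 5642 features kept; SNF2 was left out of the counts over all features). Standard errors are the log2 fold change divided by the square root of F. DESeq2 1.42.0 was an alternative.

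Names, positions and sequences came from the RefSeq annotation of R64, on which sacCer3 is based, and 6035 features matched. Pairs are reciprocal best protein matches (blastp 2.17.0, E-value up to 1e-10, coverage of at least 50%), and their log2 A/B ratios were tested with limma 3.58.1 (R 4.3.3). The fits were also run on simulated data in which a smaller share of features and pairs changed than was called here. Their error rates at the shares seen here were thus not tested.

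A few small subunit genes are not reported here by name, but counts over the 57 genes include them. Any other may be named. Full statistics are given for SNF2, the called genes, the single-copy genes, both copies of called pairs, all 12 regulators and the 4 genes with the smallest adjusted p of each other list. Alternatives for genes and sums were other scalings, filters, a DESeq2 test, a replicate block, a GC and length correction and leaving out each library. Ratios were refitted with the filters, the replicate block and each library left out, and with other prior counts, voom weights and a minimum identity. The GC and length correction was not applied to ratios. Added after the data were seen were an older edgeR quasi-likelihood fit and the second Rap1 form.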

Additional observations from a re-analysis of the deposited data

How the results depend on the processing

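Without each library in turn the number of small subunit genes called higher ranged from 0 to 12 and lower from 1 to 2. The share of all features called moved as well, from 24.9% without snf2Δ replicate 2 to 43.9% without wild type replicate 3. Those fits also gave the 0 and the 12 genes called higher. The number of proteins with called sums ranged from 0 to 5, with 5 without wild type replicate 3, where 43.9% of all features were called. The number of called pairs ranged from 7 to 11, beside 36.1% to 46.4% of all pairs. Upper-quartile scaling gave 7 genes called higher, beside 21.3% of all features. The GC and length correction gave 7 called lower, or 8 with the replicate block added, beside 18.6% and 20.4% of all features. In each of these 2 fits, which left summed pairs uncorrected, 1 summed protein was called, as with total counts, upper-quartile scaling and DESeq2. Across these settings 31.5% to 38.8% of all features were called in the fits with sums. The cause of these moves was not tested. Whether the replicate numbers pair the samples is not settled. Correlations of same-numbered libraries, after removal of the genotype means, were 0.15, -0.04 and 0.13. The same-numbered snf2Δ library was the best match for wild type replicates 1 and 3, but not for replicate 2. With the replicate block 4 small subunit genes were called higher and 2 lower, 9 pairs were called, and 2058 features were called in all against 1942.

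Changes of sign were followed only for genes with full statistics, so the genes named next are not all that turned. Over all 57 genes, 38 values were above 0 with all libraries and TMM scaling. The number was 17 with the GC and length correction, 17 with the replicate block added and 45 with upper-quartile scaling. Among the genes followed, no reversed value was called under either fit. With the GC and length correction, alone and with the replicate block, log2 fold changes turned to 0.041 and 0.042 for FHL1, -0.090 and -0.076 for RPS12, -0.089 and -0.090 for RPS15, -0.146 and -0.145 for RPS16B, -0.053 and -0.053 for RPS25B, -0.143 and -0.143 for RPS26A, -0.169 and -0.163 for RPS28A and -0.061 and -0.062 for RPS29B. Upper-quartile scaling gave 0.049 for RPS3, 0.00073 for RPS30A, 0.016 for RPS31 and 0.044 for RPS6A. Without each library in turn the ranges were -0.11 to 0.34 for RPS12, -0.032 to 0.11 for RPS16B, -0.25 to 0.16 for RPS22A, -0.059 to 0.29 for RPS28A, -0.16 to 0.12 for RPS3, -0.19 to 0.052 for RPS30A, -0.24 to 0.24 for RPS31 and -0.17 to 0.042 for RPS6A.

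Each small subunit gene had 648 counts or more in each library, so the spread between 3 libraries a genotype, more than depth, set the precision. With all libraries and TMM scaling, the smallest change called among the 57 genes was 0.48 on the log2 scale.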
